A study of Danio rerio with 4 samples.

Results

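Contacts that bridge the whole major alpha/beta-globin domain of zebrafish (Danio rerio) were taken from 5C matrices as the pairs that join a primer on the low-coordinate side of the domain to a primer on the high-coordinate side. A pair was counted as flank-to-flank when the midpoint of one primer lay below 55943000 and that of the other above 55992000 on chromosome 3 of danRer7, so each such contact spans a middle stretch of 49 kb. The rule used positions and no read counts. It chose 1028 of the 6699 primer pairs of the matrices. They are formed by 61 primers of the low flank (29 forward and 32 reverse, from 55888613) and 34 primers of the high flank (14 forward and 20 reverse, to 56027595), and the primers of a pair lie 50.3 to 139 kb apart, with a median of 93.2 kb.

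Blood cells were taken from adult fish for 2 of the 4 libraries and from larvae 18 days after fertilisation for the other 2. The labels do not state strain, sex, genotype or the number of fish pooled. All fish were killed with tricaine, and in both groups the blood was fixed with 2% formaldehyde and taken through the same protocol, so no untreated or uncrosslinked control is among the groups. The labels speak of biological replicates but not of separate 3C templates, so the p-values reflect only how far these libraries spread. No expression was measured, and the label blood cells could not be set against marker genes. In bulk blood a contact made in more of the cells cannot be told apart from a change in the makeup of the blood.

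In 5C (carbon-copy chromosome conformation capture), fixed chromatin is cut and religated, and each read joins 1 forward with 1 reverse primer whose restriction ends were ligated. Red blood cells of fish are nucleated, so chromatin can be studied in circulating cells. Globin genes are known for contacts over long distances: in mouse erythroid cells, elements on either side of the beta-globin locus come close to each other and to the locus control region, a group of distant enhancers, and in mouse and human the main alpha-globin enhancers lie in introns of the neighbouring gene nprl3. In zebrafish the embryonic-larval and the adult globin genes form separate blocks of the same domain. No danRer7 annotation was used, so neither the blocks nor nprl3 were placed on the primers, and the contacts below are described by primer and position. Primers are named F (forward) or R (reverse) with their number in the files.

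The adult libraries held 65450 (replicate 1) and 38494 counts (replicate 2) and the larvae libraries 20801 (replicate 1) and 6539 (replicate 2), so every stage comparison is also a comparison of deeper with shallower libraries. Levels are given in CPM, the count per 1000000 counts of a library. Where a stage had no read, the limit was set at 3 counts over its libraries, or 28.9 CPM in adults and 110 CPM in larvae. Without molecular identifiers PCR reads are not independent molecules, and limits and intervals cover counting error only. A group of 3 pairs outside the flank-to-flank set, F165-R224, F165-R236 and F217-R164, took 15.2% and 18.5% of the counts in the adult libraries and 24.8% and 34.5% in the larvae libraries. Among neighbouring forward and reverse primers less than 190 bp apart, 98 of 141 reciprocal couples with reads (the forward primer of each place with the reverse primer of the other) held the same count in all 4 libraries, against 0 of 353 couples at 190 to 400 bp. Identical entries cannot be taken as separate measurements. They make up 195 entries of the matrices and 6 flank-to-flank entries, the couples F54-R274 with F275-R52, F86-R283 with F285-R85, and F117-R283 with F285-R116.

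Flank-to-flank pairs took a larger share of all counts in larvae than in adults. They held 2147 counts in adult replicate 1, which is 3.28% of the library (95% exact Clopper-Pearson interval 3.15 to 3.42%), and 1266 in adult replicate 2, or 3.29% (3.11 to 3.47%). They held 1037 counts in larvae replicate 1, or 4.99% (4.69 to 5.29%), and 275 in larvae replicate 2, or 4.21% (3.73 to 4.72%). Both larvae libraries lay above both adult libraries, and no interval of one stage reached into the other. The mean share was 3.28% ± 0.00598 (SD, n = 2) in adult and 4.60% ± 0.551 (SD, n = 2) in larvae libraries. With 2 libraries per stage the exact permutation test cannot go below a two-sided p of 0.3333, so the share carries no test. With the 3 dominant pairs left out of the totals the shares were 3.95% ± 0.117 and 6.52% ± 0.149 (SD, n = 2 each), which widened the gap from -1.31 to -2.57 percentage points, adult minus larvae. Without the strongest flank-to-flank pair, F133-R281, the shares were 3.02% and 2.97% in adults and 4.40% and 3.63% in larvae, still with no overlap between stages.

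Most pairs across the domain had no read at all. Of the 1028 pairs, 861 were at 0 in all libraries and 167 (16.2%) had a read in at least 1, against 37.4% of all pairs of the matrices. Reads were found in 113 and 102 pairs in the adult libraries and in 75 and 60 in the larvae libraries. The counts were concentrated: the 10 pairs with the highest counts in a library held 43.7% and 46.4% of its flank-to-flank counts in adults and 50.4% and 48.4% in larvae.

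The contacts with reads were largely shared by the libraries of a stage and differed between stages. Of the pairs seen in either adult library, 101 of 114 (88.6%) were seen in both, and of those seen in either larvae library, 57 of 78 (73.1%). An adult and a larvae library shared 19 to 25 pairs, 12.3% to 15.7% of those seen in either. Over all pairs of the matrices an adult and a larvae library shared 22.8% to 25.5%, and over the 1497 other pairs at least as far apart as the closest flank-to-flank pair 8.97% to 10.8%, so the overlap between stages was also low among other long-range pairs.

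Contacts seen in all 4 libraries numbered 19, or 1.85% of the flank-to-flank pairs, where 7.36% of all pairs of the matrices were seen in all 4. A further 77 pairs (7.49%) had reads in both adult libraries and none in either larvae library, against 18.6% of all pairs. In the opposite direction 38 pairs (3.70%) had reads in both larvae libraries and none in either adult library, against 4.58% of all pairs. The other 33 pairs with reads fit none of these patterns, and 27 of them were seen in 1 library only. At these distances the 1497 other pairs gave 31, 244 and 51 pairs in the same order of classes, which is 2.07%, 16.3% and 3.41%. The 19 shared contacts carried 33.3% and 31.8% of the flank-to-flank counts in the adult libraries and 40.4% and 49.1% in the larvae libraries, while contacts seen in adults only carried 63.7% and 66.0% of the adult counts and those seen in larvae only 54.1% and 48.0% of the larvae counts.

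**Figure D1:**
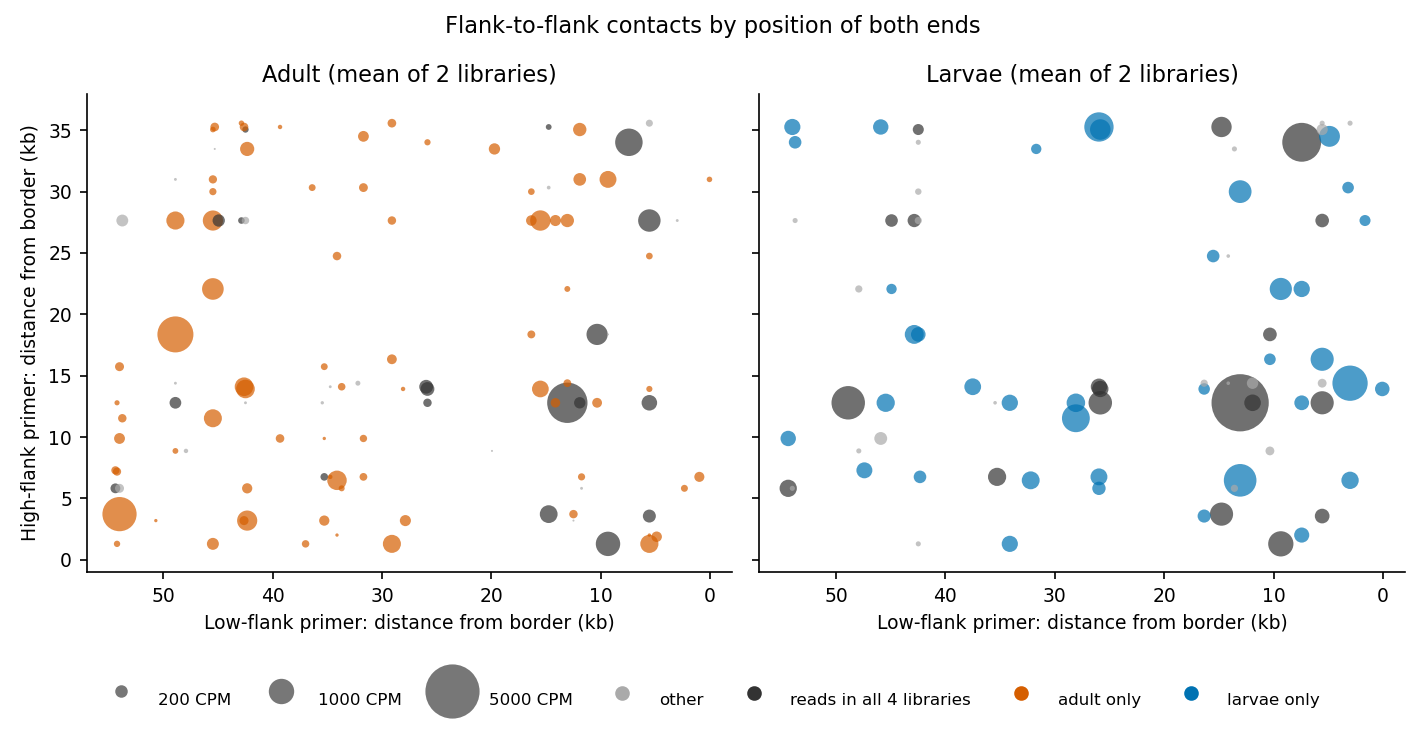
Flank-to-flank pairs by the distance of the low-flank primer (x axis, kb) and of the high-flank primer (y axis, kb) from the border of their flank, in adults (left) and larvae (right). Circle area is the mean CPM of 2 libraries. Colour gives the class: 19 pairs had reads in all 4 libraries, 77 in both adult libraries only and 38 in both larvae libraries only. The other 33 pairs with reads fit none of these classes, and some of them, such as F56-R297, appear in both panels.

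Depth sets how firmly an absence can be read. If a pair seen in adults only had the same CPM in larvae, 50 of the 77 would have been foreseen with at least 3 reads over both larvae libraries (median over the 77 of 3.72 reads), so for the other 27 of the weak adult contacts an absence in larvae was not detectable at this depth. For the 38 pairs seen in larvae only, 20.4 to 239 adult reads (median 50.2) were foreseen at equal CPM. Having no adult read defines this class, so that absence is not a result set against the foreseen numbers. The foreseen numbers come from the mean CPM of the same larvae counts, with both larvae libraries weighted equally. Few reads in the larvae library of 6539 counts can thus raise them. F311-R55, with 1 and 6 larvae counts, had a larvae mean of 483 CPM. With all libraries thinned to 6539 counts the classes held 12 pairs in all 4 libraries, 38 in adults only and 33 in larvae only, against 300, 615 and 300 of all 6699 pairs. With at least 3 reads asked of each library said to hold a pair, these classes held 12, 56 and 16 pairs. In this setting 3 reads are 45.8 and 77.9 CPM in the adult libraries but 144 and 459 CPM in the larvae libraries. The 56 and 16 pairs therefore stand for unlike levels and are not a comparison of stages.

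Contacts in all 4 libraries were led by F133-R281 and F144-R308. F133 (55929935 to 55929964) and R281 (56004776 to 56004805) lie 74.8 kb apart, about equally far into both flanks. This pair had 178 and 126 counts in adults and 127 and 39 in larvae, the highest count of all flank-to-flank pairs in every library, and took 8.29% and 9.95% of the flank-to-flank counts in adults and 12.2% and 14.2% in larvae. Both larvae libraries were higher, at 6105 and 5964 CPM against 2720 and 3273 CPM in adults. The log2 change, adult minus larvae, was -0.82 ± 0.42 (SE, n = 2 per stage) and did not pass (adjusted p = 0.0677, edgeR quasi-likelihood test with Benjamini-Hochberg adjustment over the 679 pairs tested). It passed with library totals in place of TMM factors (-1.01, adjusted p = 0.0209), with libraries thinned to one depth (-1.40, 0.0245) and without larvae replicate 2 (-0.90, 0.0457, all edgeR), and the adjusted p over the other alternatives was 0.0821 to 0.650. Its counts were 21.3 and 26.7 times those foreseen from its distance and the totals of its primers in the adult libraries, and 10.2 and 14.1 times in the larvae libraries. The foreseen counts were small, 8.35 and 4.72 in adults and 12.5 and 2.76 in larvae, so a stage difference in these ratios is not shown. The pair was named for its high level, so the excess is not separate support.

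F144 (55935564 to 55935593) and R308 (56026009 to 56026038) lie 90.4 kb apart. F144-R308 had 92 and 53 counts in adults and 49 and 21 in larvae, and no library overlapped between stages in CPM (1406 and 1377 against 2356 and 3212). The log2 change was -0.77 ± 0.49 (SE, adjusted p = 0.153, edgeR) and did not pass. The counts of this contact were 61.5, 60.8, 76.7 and 57.1 times those foreseen from its distance and primer totals in the 4 libraries in the order above. The foreseen counts were only 1.495, 0.872, 0.639 and 0.368, so the ratios are uncertain and an equal excess is not shown. This pair was also named for its high level, so its excess is not separate support. F141-R264, the shared contact with the smallest fitted change, had 81 and 37 counts in adults and 33 and 5 in larvae (edgeR log2 change -0.01 ± 0.61 SE, adjusted p = 0.981). The CPM of the stages overlap, but with this error equal levels are not shown. F269-R130 had 27 and 29 counts in adults and 3 and 12 in larvae, and here the larvae libraries lay far apart, at 144 and 1835 CPM.

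Of the 19 shared contacts 13 passed the filter on low counts, and 3 of them were higher in larvae. F70-R281, 111 kb apart, had 23 and 6 counts in adults and 54 and 10 in larvae, which is 351 and 156 CPM against 2596 and 1529 CPM (edgeR log2 change -2.82 ± 0.70 SE, adjusted p = 0.000154). F117-R281, 87.6 kb apart, had 12 and 3 counts in adults and 20 and 7 in larvae (edgeR log2 change -2.63 ± 0.76 SE, adjusted p = 0.00102). F311-R130, 99.0 kb apart, had 3 and 3 counts in adults and 19 and 4 in larvae (edgeR log2 change -3.55 ± 0.73 SE, adjusted p = 5.92e-06). In all 3 pairs both larvae libraries lay above both adult libraries in CPM. None of them reached the filter level in both adult libraries. They passed through the larvae libraries, so their p-values are not separate support. A shared contact needs a read in larvae replicate 2, where 1 read is 153 CPM, against 15.3 and 26.0 CPM in adults. Contacts lower in larvae can thus drop out of this class, and its calls by direction do not compare the stages. No share called among all pairs in all 4 libraries is set beside them. The call of F70-R281 was lost without adult replicate 2 (adjusted p = 0.166) and without larvae replicate 1 (0.0723, both edgeR). That of F117-R281 was lost with DESeq2 (0.0700) and, in edgeR, without adult replicate 1, adult replicate 2 or larvae replicate 1 (0.0703, 0.266 and 0.104), and that of F311-R130 without adult replicate 1 or 2 (0.146 and 0.143, edgeR). No shared contact passed as higher in adults, with 0 in edgeR and in DESeq2 also at an unadjusted p under 0.05 and 2 (F138-R291 and F152-R297) in edgeR with no filter on low counts or without the 3 dominant pairs, and the largest change in that direction was that of F138-R291 (66 and 25 counts in adults, 8 and 2 in larvae, edgeR log2 change 1.38 ± 0.82 SE, adjusted p = 0.123).

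**Figure D2:**
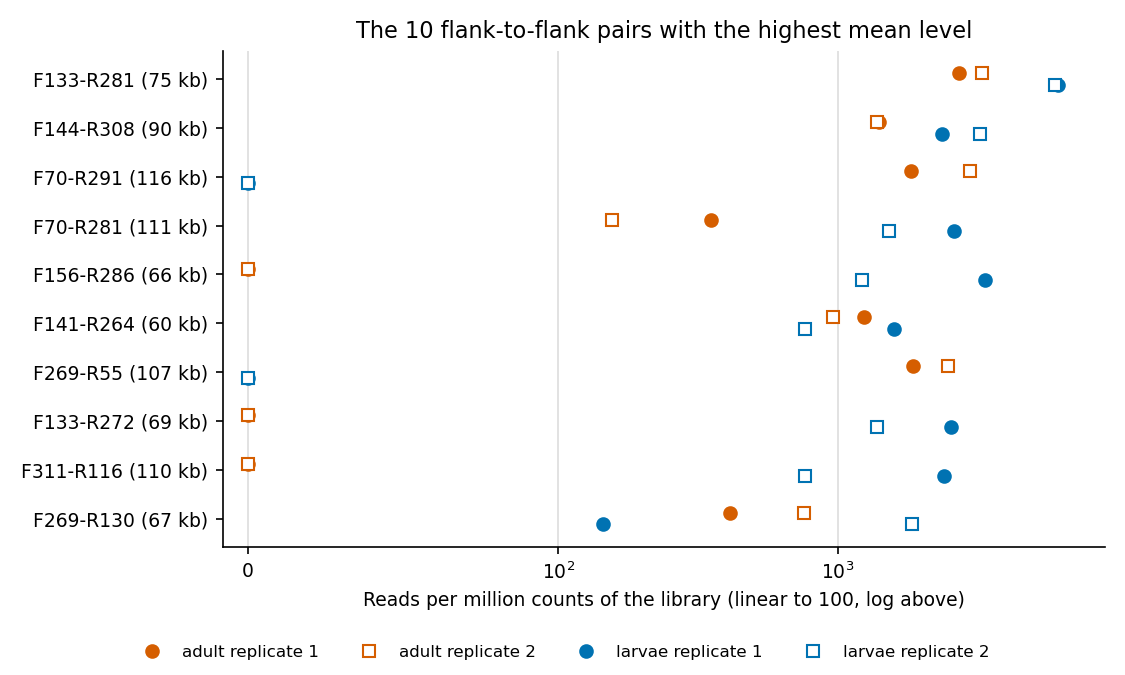
CPM (x axis, linear to 100 and logarithmic above) in each of the 4 libraries for the 10 flank-to-flank pairs with the highest mean level, with the distance between primers in parentheses. F70-R291 and F269-R55 sit at 0 in both larvae libraries, F156-R286, F133-R272 and F311-R116 at 0 in both adult libraries, and the other 5 pairs have reads in all 4.

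In the test over single pairs, 38 of the 1028 flank-to-flank pairs passed the filter on low counts, which a pair at 0 in a stage can pass only through the stage where it is high. Of these, 15 were higher in adults and 13 higher in larvae, while 46.1% and 24% of all 679 tested pairs were called in these directions. The members' shares were 39.5% and 34.2%, and the median log2 change, adult minus larvae, was -0.15 over the 38 and 1.08 over all tested, the same with pairs at 0 in a stage set at their bound. The sign of the flank-to-flank median depends on the setting: it was 6.15 without larvae replicate 1 (6.17 over all tested), 1.78 without larvae replicate 2, 2.71 with no filter (3.10), 2.84 with libraries thinned to one depth (4 pairs, 0.18 over all), 0.76 with DESeq2 and 0.0737 with a replicate block, and -0.66 and -1.31 without adult replicates 1 and 2. All 15 pairs higher in adults were at 0 in both larvae libraries, and 10 of the 13 higher in larvae were at 0 in both adult libraries. The 15 count both entries of the identical couple F86-R283 and F285-R85, and with 1 entry of each couple they numbered 14. The counts of calls depend on single libraries. In both directions fewer flank-to-flank pairs passed without adult replicate 1, adult replicate 2 or larvae replicate 1. Fewer of all tested pairs passed in these settings too. Each of these fits has 1 library in a stage. With library totals in place of TMM factors the median over all tested pairs was 0.91, and 15 flank-to-flank pairs were higher in adults and 14 in larvae. With DESeq2 15 were higher in adults and 29 in larvae.

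Contacts of adults only were led by F70-R291 and F269-R55, which join the outer part of the low flank to the inner and middle part of the high flank. F70 (55894100 to 55894129) and R291 (56010349 to 56010378) lie 116 kb apart, and the pair had 119 and 114 counts in adults and 0 in both larvae libraries. F269 (55995701 to 55995730) and R55 (55888989 to 55889018) lie 107 kb apart, and the pair had 121 and 95 counts in adults and 0 in both larvae libraries. In both adult libraries F133-R281 alone had more flank-to-flank counts than these, and the adult level was at least 21.8-fold (F70-R291) and at least 19.7-fold (F269-R55) the level that 3 counts over both larvae libraries allow. Adjusted p-values were 4.38e-10 and 2.98e-09 (edgeR). Both pairs passed the filter on low counts only through the adult libraries, so these p-values are not separate support. The larvae limit rests on larvae replicate 1, and without it the bounds were at least 5.21-fold and 4.70-fold, and at least 1.12-fold to 5.21-fold over all 15 adult-only pairs that passed.

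A group of adult contacts shared the reverse primer R297 or the forward primer F76. F76 (55897526 to 55897555) with R293 (56014054 to 56014083) had 84 and 17 counts, and with R297 (56019632 to 56019661) 59 and 23, in adult replicates 1 and 2. R297 with F129 (55927470 to 55927499) had 39 and 36 counts. All 3 pairs were at 0 in both larvae libraries and span 117, 122 and 92.2 kb, and their adult levels were at least 7.86-fold, 6.83-fold and 6.98-fold the larvae limit. F267-R87 had 59 and 23 counts, F100-R272 had 32 and 35 and F86-R283 (with its reciprocal entry F285-R85) had 31 and 31, again with 0 in larvae, and at least 6.83-fold, 6.37-fold and 5.83-fold. Over the 15 adult pairs that passed, the bound ran from at least 4.70-fold to at least 21.8-fold, with adjusted p-values from 4.38e-10 to 0.000168 (edgeR). The calls of F129-R297, F76-R297, F267-R87, F100-R272 and F86-R283 were lost without larvae replicate 1 (adjusted p = 0.0660 to 0.104, edgeR), and those of the first 4 of these also without adult replicate 1 or 2 (0.0706 to 0.174).

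Contacts of larvae only were led by F156-R286, F133-R272 and F311-R116. F156 (55939985 to 55940014) and R286 (56006373 to 56006402) lie 66.4 kb apart, F156 close to the inner border of its flank, and the pair had 70 and 8 counts in larvae and 0 in both adult libraries. F133 with R272 (55998456 to 55998485), 68.5 kb apart, had 53 and 9 counts, and F311 (56027257 to 56027286) with R116 (55917025 to 55917054), 110 kb apart, had 50 and 5. Since the adult libraries are the deeper ones, the limits are tighter here: larvae levels were at least 79.5-fold, 68.0-fold and 54.9-fold the level that 3 counts over both adult libraries allow, with adjusted p-values of 1.64e-12, 4.28e-11 and 4.06e-10 (edgeR). All 3 pairs passed the filter on low counts only through the larvae libraries, so the p-values are not separate support. Larvae replicate 1 gave most of their larvae counts. Without it, or with libraries thinned to one depth, none of the 3 pairs passed the filter, so none was tested there. Without larvae replicate 1 the bounds were at least 42.4-fold, 47.7-fold and 26.5-fold. Without adult replicate 1 they were at least 29.4-fold, 25.2-fold and 20.3-fold, and without adult replicate 2 at least 50.1-fold, 42.8-fold and 34.6-fold.

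The other named larvae contacts had lower counts. F112-R278 had 34 and 8 counts in larvae replicates 1 and 2, F133-R302 had 27 and 4, F141-R293 had 25 and 4, and F309-R153 had 24 and 3, all with 0 in adults and at least 27.9-fold to 49.5-fold above the adult limit. F76-R281 had 16 and 3 counts (at least 21.3-fold), and its call was lost without either adult library (adjusted p = 0.0606 and 0.0935, edgeR). F152-R288 had 6 and 11 counts and did not pass the filter. It was the only one of these pairs with more counts in larvae replicate 2. Over the 10 larvae pairs that passed, the bound ran from at least 17.9-fold to at least 79.5-fold. Without adult replicate 1 it ran from at least 6.65-fold to 29.4-fold, and without adult replicate 2 from 11.3-fold to 50.05-fold. Without larvae replicate 1 it ran from at least 15.9-fold to 47.7-fold. These bounds take the larvae mean as exact, although it rests on few reads in larvae replicate 2.

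Each contact of a single stage that passed, 15 of adults and 10 of larvae, had pairs with reads of the other stage within 5 kb of both ends. Around F70-R291, 2 of 36 pairs had reads in larvae (9 and 1 counts in all), and around F156-R286 2 of 47 pairs had reads in adults (30 and 22 counts). Around F129-R283, 6 of 53 pairs had reads in larvae (151 and 46 counts), and around F133-R302 8 of 42 had reads in adults (131 and 112). Most counts around 2 of these pairs came from shared contacts. F133-R281 gave 127 and 39 of the larvae counts around F129-R283, and F152-R281 gave 26 and 19 of the adult counts around F156-R286. Of all 1028 flank-to-flank pairs, 114 had reads in either adult library and 78 in either larvae library. No test was made. Of the 95 primers 87 had reads, and 43 had some partners seen in adults only and others seen in larvae only. F133 and F76 are examples and not particular in this. F133 met R272 and R302 in larvae only and R297 in adults only (12 and 18 counts). F76 met R281 in larvae only and R293, R297 and R278 (51 and 16 counts) in adults only.

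Counts were also summed for each primer over all its partners in the opposite flank. The 19 shared contacts involved 28 primers. R281, singled out after its values were seen, took part in 5 of them, and F152 and R297 in 3 each. Of the 95 primers, 56 passed the filter, of which 11 were higher in adults and 23 higher in larvae, against 31.5% and 25.6% called in these directions among all 410 sums of a primer over a partner region. The members' shares were 19.6% and 41.1%, and the median log2 change, adult minus larvae, was -0.86 over the 56 and 0.06 over all tested. It was -0.0571 without larvae replicate 1 (0.26 over all tested), -0.57 without larvae replicate 2 (0.12) and -0.50 without adult replicate 2 (0.0490). With no filter it was -0.13 (0.22) and with DESeq2 -0.32 (0.14). In the low flank 6 of 30 tested primers were higher in adults and 11 in larvae, and in the high flank 5 and 12 of 26. Sums of 2 primers that share a pair are not independent. Fewer primers were higher in larvae without adult replicate 1, adult replicate 2 or larvae replicate 1. Fewer were higher in adults without either adult library, and more without larvae replicate 2. The calls among all sums tested moved the same way in these settings, and each of these fits has 1 library in a stage.

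R281 and R297 held the highest flank-to-flank counts of the high-flank primers in adults and went in opposite directions. R281 held 284 and 179 flank-to-flank counts in adults (13.2% and 14.1% of all flank-to-flank counts) and 280 and 79 in larvae (27.0% and 28.7%), a log2 change of -1.45 ± 0.26 (SE, adjusted p = 1.84e-07, edgeR). R297, farther out, held 308 and 179 counts in adults (14.3% and 14.1%) and 33 and 7 in larvae (3.18% and 2.55%), a log2 change of 1.80 ± 0.35 (SE, adjusted p = 2.33e-06, edgeR). For both primers the libraries of a stage lay close together and the stages did not overlap. F133, the partner of R281 in the strongest contact, held 203 and 150 counts in adults and 207 and 52 in larvae (edgeR log2 change -1.31 ± 0.27 SE, adjusted p = 6.31e-06).

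**Figure D3:**
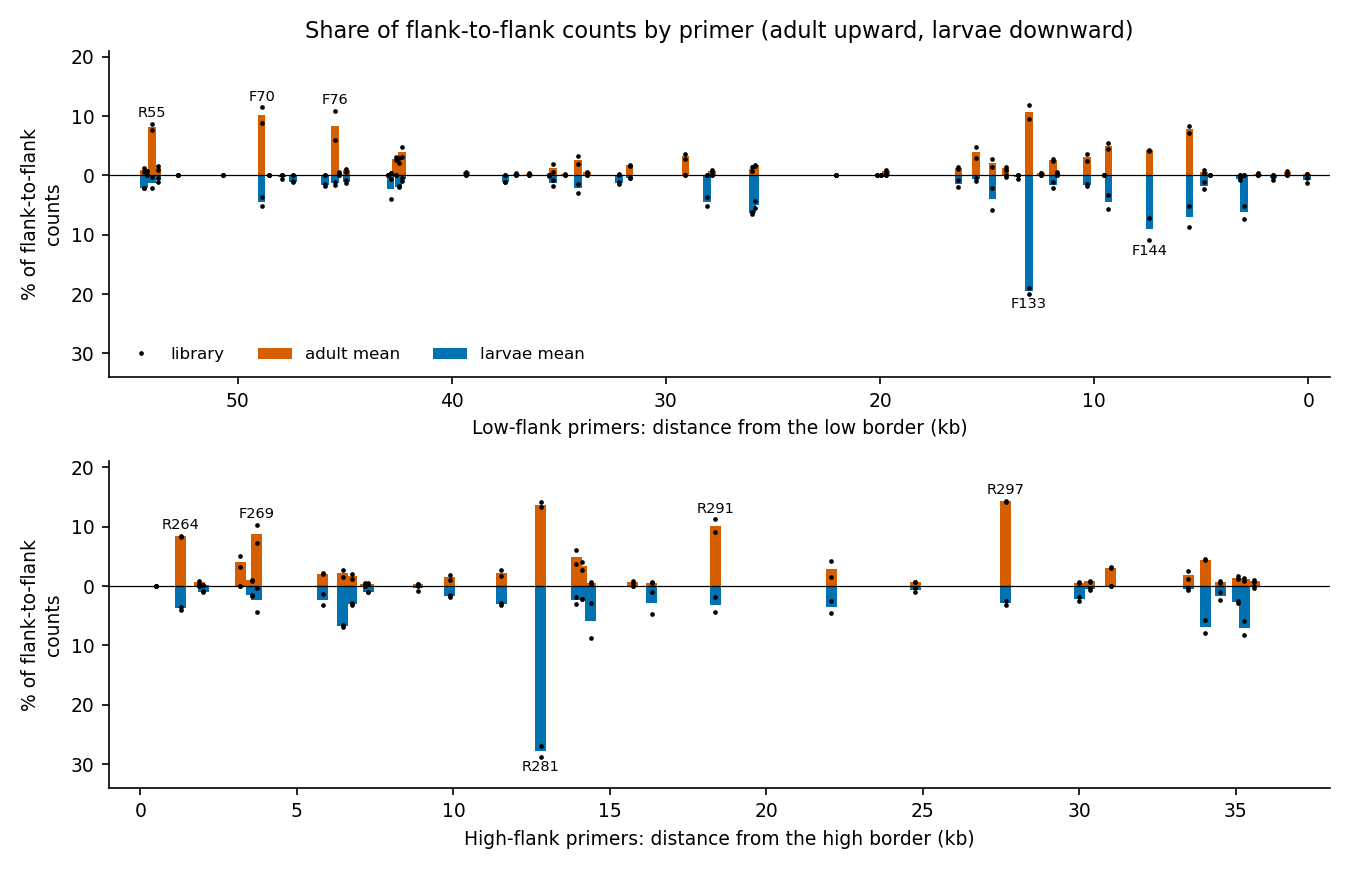
Share of each library's flank-to-flank counts held by each primer (y axis, percent, adults upward and larvae downward) by the primer's distance from the border of its flank (x axis, kb), for the low flank (top) and the high flank (bottom). Bars are means of 2 libraries and points the libraries, and R281 has 13.2% and 14.1% in adults and 27.0% and 28.7% in larvae, while R297 has 14.3% and 14.1% against 3.18% and 2.55%.

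Several of the primers with low adjusted p-values had few or no flank-to-flank counts in one stage. F156 had 2 and 0 counts in adults and 76 and 14 in larvae (edgeR log2 change -6.99 ± 0.84 SE, adjusted p = 1.41e-14), F112 had 3 and 1 against 54 and 10 (adjusted p = 6.93e-12), and R286 had 16 and 4 against 91 and 8 (adjusted p = 2.94e-09). The pair F156-R286, with 70 and 8 counts in larvae, held most of the larvae counts of both F156 and R286. The calls of these 2 primers thus largely restate that pair. All larvae counts of F112 came from F112-R278 (34 and 8) and F112-R281 (20 and 2), both pairs of larvae only. R75 (15 and 5 counts in larvae) and R93 (12 and 3) were at 0 in adults, at least 25.7-fold and 17.9-fold below larvae. All flank-to-flank counts of R93 came from the pair F285-R93. In the opposite direction F267 (107 and 41 counts in adults), F109 (59 and 46), R304 (64 and 41) and R85 (55 and 39) were at 0 in larvae, with adult levels at least 12.3-fold, 9.55-fold, 9.31-fold and 8.45-fold the larvae limit (adjusted p = 1.13e-06 to 8.43e-06, edgeR). Without larvae replicate 1 these 4 bounds were at least 2.02-fold to 2.94-fold, and without adult replicate 1 those of R75 and R93 at least 9.53-fold and 6.65-fold. Sums at 0 in a stage passed the filter only through the other stage. Those of F156, F112 and R286 passed only through the larvae libraries. The p-values of all these sums are therefore not separate support. Reads with the forward primer in the low flank made up 71.5% and 73.3% of the flank-to-flank counts in adults and 78.9% and 76.4% in larvae.

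Some of these primers moved the opposite way with partners elsewhere in the region, and others moved the same way. F133 was higher in larvae with the opposite flank but higher in adults with the middle stretch, where it had 666 and 312 counts in adults and 67 and 9 in larvae (edgeR log2 change 1.91 ± 0.29 SE, adjusted p = 1.32e-09), and with its own flank (0.78 ± 0.30 SE, adjusted p = 0.0200). F112 had 450 and 286 counts with the middle in adults and 38 and 15 in larvae (1.92 ± 0.31 SE, adjusted p = 1.27e-08), and R286 had 219 and 132 against 20 and 3 (2.14 ± 0.45 SE, adjusted p = 1.18e-05, both edgeR). F156 was also higher in adults with the middle (0.68 ± 0.29 SE, adjusted p = 0.0354, edgeR), and R93 with its own flank (2.96 ± 0.84 SE, adjusted p = 0.00112, edgeR). R93 with the middle (-0.73, adjusted p = 0.265) and R286 with its own flank (-0.87, 0.117, both edgeR) did not pass. R75 was higher in larvae with its own flank as well (-1.01 ± 0.27 SE, adjusted p = 0.000720) and had a log2 change of -0.14 with the middle (0.870, both edgeR). R281 was higher in larvae with all 3 regions, with log2 changes of -1.38 with the middle and -2.09 with its own flank (adjusted p = 1.16e-05 and 5.63e-11, edgeR). Among the primers higher in adults, F267, R297, F109 and R85 were higher in adults with the middle too (log2 changes of 1.42 to 3.38, adjusted p = 5.34e-13 to 0.00490, edgeR), while R304 had 66 and 30 counts with the middle in adults and 40 and 10 in larvae (-0.90 ± 0.56 SE, adjusted p = 0.160) and was higher in larvae with its own flank, with 91 and 42 counts in adults and 77 and 11 in larvae (-1.13 ± 0.45 SE, adjusted p = 0.0227, both edgeR).

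Counts were also summed over windows of 10 kb, taken outward from the borders. Of the 24 window pairs between the flanks 20 passed the filter, and 1 was higher in adults and 6 higher in larvae, against 19.5% and 15% called in these directions among all 113 window pairs tested. The median log2 change was -0.22 over the 20 and 0.09 over all tested. It was 0.11 with DESeq2 (0.0840 over all tested) and 0.14 with no filter (0.0136). Without larvae replicates 1 and 2 it was 0.0248 and -0.00081 (0.13 and 0.0125), so its direction is not settled. The window pair higher in adults joined the outermost part of the low flank, 50 to 54 kb from its border, to the innermost 10 kb of the high flank, with 181 and 128 counts in adults and 24 and 6 in larvae (edgeR log2 change 1.61 ± 0.31 SE, adjusted p = 0.0238). It holds F269-R55. The 7 calls were not kept without either adult library, but neither were those of any other window pair of the matrix. The call of the pair higher in adults was also lost without either larvae library, where other window pairs of the matrix still passed. Each of these fits has 1 library in a stage, so the losses cannot be read as particular to flank-to-flank window pairs. At an unadjusted p under 0.05, 3 window pairs were higher in adults and 8 in larvae with all libraries.

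Of the window pairs higher in larvae, the one with the lowest adjusted p joined the innermost 10 kb of the low flank to the part of the high flank 10 to 20 kb from its border. It had 31 and 22 counts in adults and 121 and 30 in larvae (edgeR log2 change -3.23 ± 0.30 SE, adjusted p = 0.00547), and it holds F156-R286. The next 10 kb of the low flank with the innermost 10 kb of the high flank had 47 and 37 counts against 76 and 22 (edgeR log2 change -1.97 ± 0.33 SE, adjusted p = 0.0182). The low-flank window 20 to 30 kb from its border was higher in larvae with 2 partners. With the high-flank window at 10 to 20 kb it had 62 and 44 counts against 96 and 23 (-1.88, adjusted p = 0.0166, edgeR). With the outermost window it had 14 and 8 against 76 and 7 (-3.47, adjusted p = 0.0238, edgeR). The larvae counts with the outermost window came from F311-R116 (50 and 5) and F117-R310 (26 and 2), both pairs of larvae only. That sum passed the filter only through the larvae libraries, so its p-value is not separate support. The innermost window of the low flank with the outermost window of the high flank had 143 and 75 counts against 81 and 29 (-0.88, adjusted p = 0.0473, edgeR). The outermost windows of both flanks had 0 in both adult libraries and 10 and 7 counts in larvae (adjusted p = 0.0449, edgeR, at least 26.9-fold, and at least 9.95-fold without adult replicate 1). This window pair passed the filter only through the larvae libraries, so its p-value is not separate support. Its reads came from F56-R308 (9 and 1 counts) and F311-R55 (1 and 6), so different pairs led in the 2 larvae libraries. The window pair that holds F133-R281 had the highest counts, 326 and 205 in adults and 163 and 50 in larvae, and did not pass (edgeR log2 change -0.48 ± 0.15 SE, adjusted p = 0.0708).

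**Figure D4:**
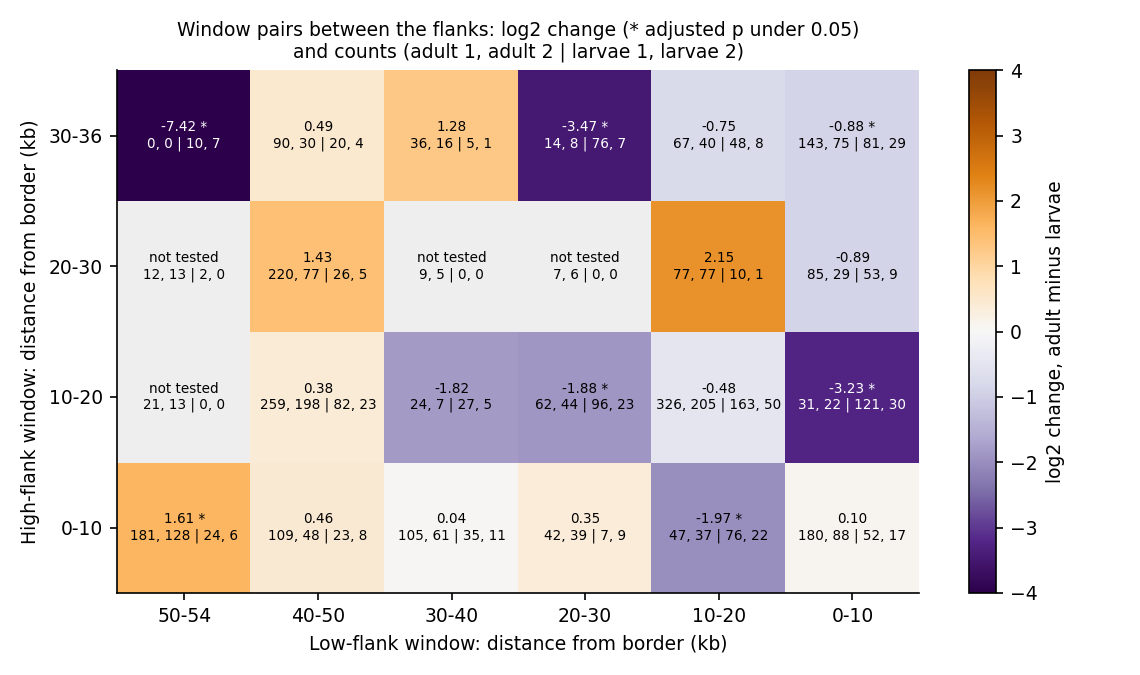
Log2 change between stages (colour, adult minus larvae) for the 24 pairs of 10-kb windows, by the distance of the low-flank window (x axis, kb) and of the high-flank window (y axis, kb) from the border. Numbers give the log2 change and the counts in adult replicates 1 and 2 and larvae replicates 1 and 2, and asterisks mark the 1 window pair higher in adults and the 6 higher in larvae.

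Distance did not order the flank-to-flank contacts in either stage. In larvae the mean level per pair was highest at 65 to 80 kb, with 91.6 and 84.1 CPM in replicates 1 and 2, against 23.6 and 23.9 CPM in the other pairs of the matrices at that distance. In adults it was 34.4 and 39.9 CPM there, against 47.7 and 39.1 CPM in other pairs. Part of the larvae peak came from F133-R281, and without it the flank-to-flank means were 60.0 and 53.1 CPM in larvae and 20.3 and 22.8 CPM in adults. Over 50 to 110 kb, where both kinds of pair exist, flank-to-flank pairs had 30.0 and 31.3 CPM in adults and 50.8 and 44.3 in larvae, and other pairs 45.9 and 41.5 in adults and 37.7 and 31.9 in larvae. These sets differ in distance, and the order changed between bins. At 80 to 95 kb flank-to-flank pairs were again higher in larvae (55.9 and 49.6 against 33.7 and 31.6 CPM) and lower in adults (34.0 and 34.4 against 39.2 and 41.1). At 50 to 65 kb they were lower in both stages, with 26.3 and 21.8 against 49.0 and 44.9 CPM in adults and 29.8 and 26.2 against 46.7 and 37.8 in larvae. At 95 to 110 kb, where 47 other pairs exist, they were higher in adults (24.2 and 25.9 against 10.4 and 9.40 CPM), lower in larvae replicate 1 (24.1 against 44.0) and higher in larvae replicate 2 (17.1 against 9.76). These are levels per pair with no test. The longest pair with a read spans 138 kb.

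**Figure D5:**
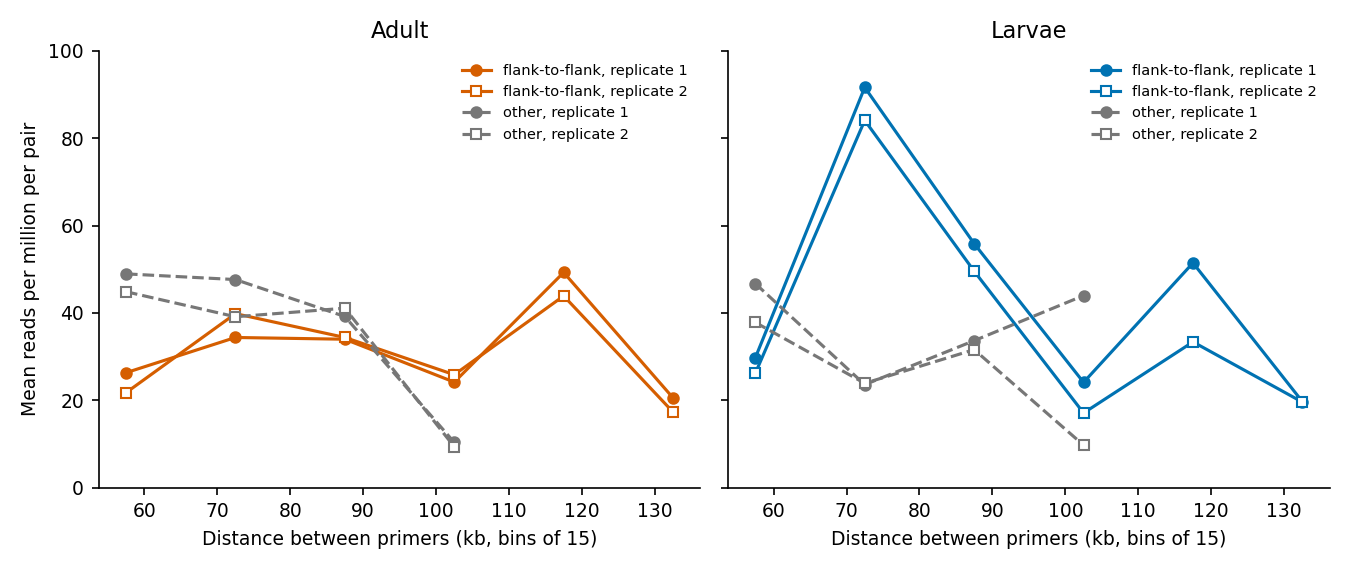
Mean CPM per primer pair (y axis) by distance between primers (x axis, kb, bins of 15 kb) in adults (left) and larvae (right), for flank-to-flank pairs (solid) and all other pairs (dashed), with 1 line per library. At 65 to 80 kb flank-to-flank pairs reach 91.6 and 84.1 CPM in larvae and 34.4 and 39.9 CPM in adults.

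Primers at the borders of the rule were compared once across them, without a test. F163, the last primer inside the low flank (54.5 bp from its border), had 4 and 2 counts with the high flank in adults and 13 and 1 in larvae, and R164, the first outside it (196.5 bp), had 39 and 20 in adults and 0 in larvae. F263, the first primer inside the high flank (495.5 bp), had no read with the low flank, and R262, the first outside it (309.5 bp), had 36 and 29 counts in adults and 1 and 0 in larvae. R164 is also a primer of a dominant pair.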

How the data were processed

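The authors deposited 1 matrix of whole-number read counts per library, forward by reverse primers, with no normalization. The tools named in the submitters' processing notes are bcl2fastq 1.8.4 and Bowtie2 2.2.2, the build is danRer7, and primer coordinates come from the file headers. The rule that assigned reads to pairs and the restriction enzyme were not stated in those sources. Primer sequences were not used here.

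Pairs, sums of a primer over its partners in the low flank, middle or high flank, and sums over 10-kb windows were each tested with edgeR 4.0.16 (R 4.3.3) by its quasi-likelihood test, with stage as its single term, TMM factors and filterByExpr at its defaults (minimum count 10, minimum total 15). The test ran over the whole matrix, with Benjamini-Hochberg adjustment over all features tested and a threshold of 0.05. The SE of an edgeR log2 change was derived from the test, as the absolute log2 change divided by the square root of its F statistic. It is not a spread measured between the libraries. CPM is the count per 1000000 counts of a library. Foreseen counts of a pair come from a Poisson model of primer totals and distance, fitted from 5 kb upward with the 3 dominant pairs left out, and those of a stage-only pair in the other stage from its CPM and that stage's total. A fold against a stage at 0 is a lower bound against 3 counts over the stage, and intervals are exact Clopper-Pearson at 95%. The fit was also run on simulated counts with a fixed dispersion and with changes placed only on pairs with higher counts. That setting differs from pairs at 0 in a stage, so it does not bear on their calls.

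The total counts per library, 65450, 38494, 20801 and 6539, set the precision. Alternatives were library totals, DESeq2 1.42.0, no filter, a replicate block, each library left out, the dominant pairs left out, thinning to 6539 counts, borders moved 5 kb outward, a minimum of 3 reads and, chosen after seeing the data, 1 entry of each identical reciprocal couple. Pairs named are the 10 with the highest mean level, the 8 largest changes per direction among those that passed, the 5 highest per stage among pairs seen in that stage only, and the 5 smallest changes among pairs in all 4 libraries that did not pass. Primers named are the 5 with the lowest adjusted p per direction, and window pairs all that passed. Other pairs and primers were named after their values were seen, as members of all-library contacts or as partners of named primers. The contacts and these rules were chosen with earlier results of these data known.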

Additional observations from a re-analysis of the deposited data

How the results depend on the processing

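With 2 libraries per stage and shallow larvae libraries these counts move with the setting, and the cause was not tested unless named. Leaving out each library in turn gave 3 to 19 flank-to-flank pairs higher in adults (15 with all libraries) and 0 to 18 higher in larvae (13), 7 to 17 primers higher in adults (11) and 9 to 21 in larvae (23), and 0 to 0 window pairs higher in adults (1) and 0 to 5 in larvae (6). With no filter on low counts, which tests more features, 53 and 49 pairs were called (914 and 426 of all 2508). In that setting 22 primers and 4 window pairs were higher in adults (147 of all 480 primer sums and 21 of all 119 window pairs). With all libraries thinned to one depth, 4 pairs and 17 primers were left to test. Of these, 2 and 1 pairs were called (34 and 31 of all 120), and 4 and 9 primers (68 and 68 of all 269 primer sums). DESeq2 gave 29 pairs higher in larvae (215 of all 2508). With 1 entry of each identical reciprocal couple 3 window pairs (23 of all 113) and 14 pairs (283 of all 641) were higher in adults. In that setting 18 pairs were seen in all 4 libraries and 75 in adults only. The stage difference in share was -2.57 percentage points without the 3 dominant pairs (-1.31 with them). Pairs in all 4 libraries numbered 12 with at least 3 reads and 12 after thinning (19), pairs of adults only 38 after thinning (77), and pairs of larvae only 16 with at least 3 reads (38).

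Libraries with the same replicate number were not treated as paired, since no pairing is stated. The correlation of their deviations from the stage means was 0.0052 over 679 pairs. Of these pairs 320 were at 0 in a stage and vary little there, so the correlation cannot decide whether the libraries were paired. With a replicate block 15 pairs were higher in adults and 13 in larvae (306 and 150 of all 679). In that setting 11 and 20 primers (121 and 93 of all 410 primer sums) and 2 and 5 window pairs (22 and 22 of all 113) were called in these directions.

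The shared contacts with changes near 0 took either sign, none past the threshold. F141-R264 (-0.01) had log2 changes of 0.18 with DESeq2, 0.45 with no filter, 0.11 with a replicate block, 0.44 without the dominant pairs and -0.39 to 0.70 with a library left out. F269-R130 (-0.19) had 0.18 with no filter, 0.0882 with a replicate block, 0.0451 without the dominant pairs and -1.51 to 2.09 with a library left out. F285-R116 and F117-R283, 1 reciprocal couple (-0.39), had 0.0704 with no filter, 0.0513 without the dominant pairs and -0.58 to 0.16 with a library left out. F80-R297 (-0.11) had 0.17 with DESeq2, 0.38 with no filter, 0.0592 with a replicate block and -0.45 to 1.07 with a library left out, where it could be tested. The other named pairs kept their direction under every alternative that tested them.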
